A study of Mus musculus with 6 samples.

Results

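A set of 10 genes of arterial endothelium and the Notch pathway was followed in mouse ventricles taken whole at E17.5, late in gestation: the ligand genes Dll4 and Jag1, the receptor genes Notch1 and Notch4, the target gene Hey1, the transcription factor gene Sox17, the connexin genes Gja4 and Gja5, and the guidance genes Efnb2 and Sema3g. They were chosen by name, with earlier results of these data known, and matched by Ensembl identifier. All 10 were found among the 25006 listed genes and passed the filter on low counts, which left 14815 genes to test. The null-labelled group (n = 3 libraries) carries VecadCreERT2, a tamoxifen-inducible Cre driven by the VE-cadherin promoter of endothelial cells, with floxed Prox1 alleles, and the control group (n = 3 libraries) is labelled WT. Both groups have an NMRI background. The protocol names one cross for all samples, Prox1 f/f females with VecadCreERT2; Prox1f/f males, and tamoxifen for the pregnant females on E13.5 and again on E14.5, dosed at 5 mg for each 40 g they weighed. Cre is named for the null-labelled group only, so loss of Prox1 and presence of Cre cannot be told apart. Prox1 sets lymphatic endothelial identity, and the series asks what cardiac lymphatics regulate as the heart forms.

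In Notch signalling a membrane-bound ligand on a cell activates a receptor on its neighbour, and the cut receptor enters the nucleus, where it works with the DNA-binding protein RBPJ to switch on Hey and Hes genes. In the embryo this pathway, together with SOXF transcription factors, sets and keeps arterial identity of endothelial cells. Arterial cells then carry the connexins GJA4 and GJA5, which couple neighbouring cells, and the guidance ligands ephrin-B2 and semaphorin 3G. Several of the genes are also used outside arteries: Gja5 in trabecular and conduction cardiomyocytes, Notch1 in endocardium and Jag1 in smooth muscle.

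Whether the labels fit the libraries was checked first. Prox1 was 1.11-fold higher in null-labelled libraries (164 ± 3.91 CPM, against 147 ± 3.15 CPM in controls; SD, n = 3 each; edgeR quasi-likelihood adjusted p = 0.0331), a call lost in 5 of 6 fits that leave out 1 library and without null 1 and null 3 (adjusted p = 0.557), with the log2 fold change above 0 in each. The targeted gene does not bear out the label; cardiomyocytes also express Prox1, and the deleted part is not given in the sources used here. Esr1, part of which the Cre-ERT2 fusion carries, was 19.1-fold higher in null-labelled libraries (298, 244 and 290 counts, against 14, 9 and 19 counts in controls; edgeR adjusted p = 2.6e-05). Every direction below rests on the labels. Libraries held 35195544 to 44330594 counts. Null 1 and null 3 carried Y-linked transcripts at 229 and 241 CPM together with Xist at 44.7 and 139 CPM, whereas each of the other 4 libraries carried either Y-linked transcripts or Xist, with the other at most 5.23 CPM. Null 2 and control 3 were those with Xist (1392 and 1401 CPM), and controls 1 and 2 those with Y-linked transcripts (253 and 243 CPM). Because null 1 and null 3 carried both, the calls are also given without null 1 and null 3. That fit leaves null 2 alone against the controls, and null 2 also differs from controls 1 and 2 in these transcripts. Of the 29 list genes called with all libraries and described below, all 29 kept their sign in that fit. Most of their calls were lost in it, as were most calls over all genes. Markers of ventricular cardiomyocytes were present in every library (summed level 55650 to 56044 CPM in null-labelled libraries and 51222 to 56324 CPM in controls), as were 15 pan-endothelial genes (1877 to 2052 CPM in null-labelled libraries and 2108 to 2381 CPM in controls). Liver and lung markers summed to at most 14.04 CPM, with Alb at 57, 20 and 125 counts in null-labelled libraries, against 3, 12 and 322 counts in controls.

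Arterial and Notch genes were lower in null-labelled ventricles in part. Sox17, Gja4, Notch4 and Sema3g fell at an adjusted p under 0.05 over all genes tested, while Dll4, Jag1, Notch1, Hey1, Efnb2 and Gja5 did not pass. The 4 of 10 stand beside 2.98% of all genes tested that were called lower, 2.43% called higher and 5.41% called in either direction. None of the 10 was called higher by edgeR (0 genes), limma-voom (0) or DESeq2 (0). With an unadjusted edgeR p under 0.05, 9 of the 10 were lower and 0 higher, beside 1618 lower and 1415 higher of all 14815 genes tested. Without null 1 and null 3, 9 of the 10 log2 fold changes lay below 0, with a median of -0.42. The calls were lost in that fit, as were most calls over all genes. DESeq2 and limma-voom were not run on those libraries. With all libraries, all 10 log2 fold changes lay below 0, with a median of -0.35, beside a median of -0.004 over all genes. In 8 of 10 genes the values of the groups did not overlap, beside 26.6% of all genes tested. Since the 10 genes were chosen with earlier results of these data known, these shares describe them and are not an unbiased contrast. Levels are in CPM, the count scaled to library size, adjusted by the trimmed mean of M values (TMM). In whole ventricle, fewer cells of a type and less RNA per cell cannot be told apart.

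**Figure D1:**
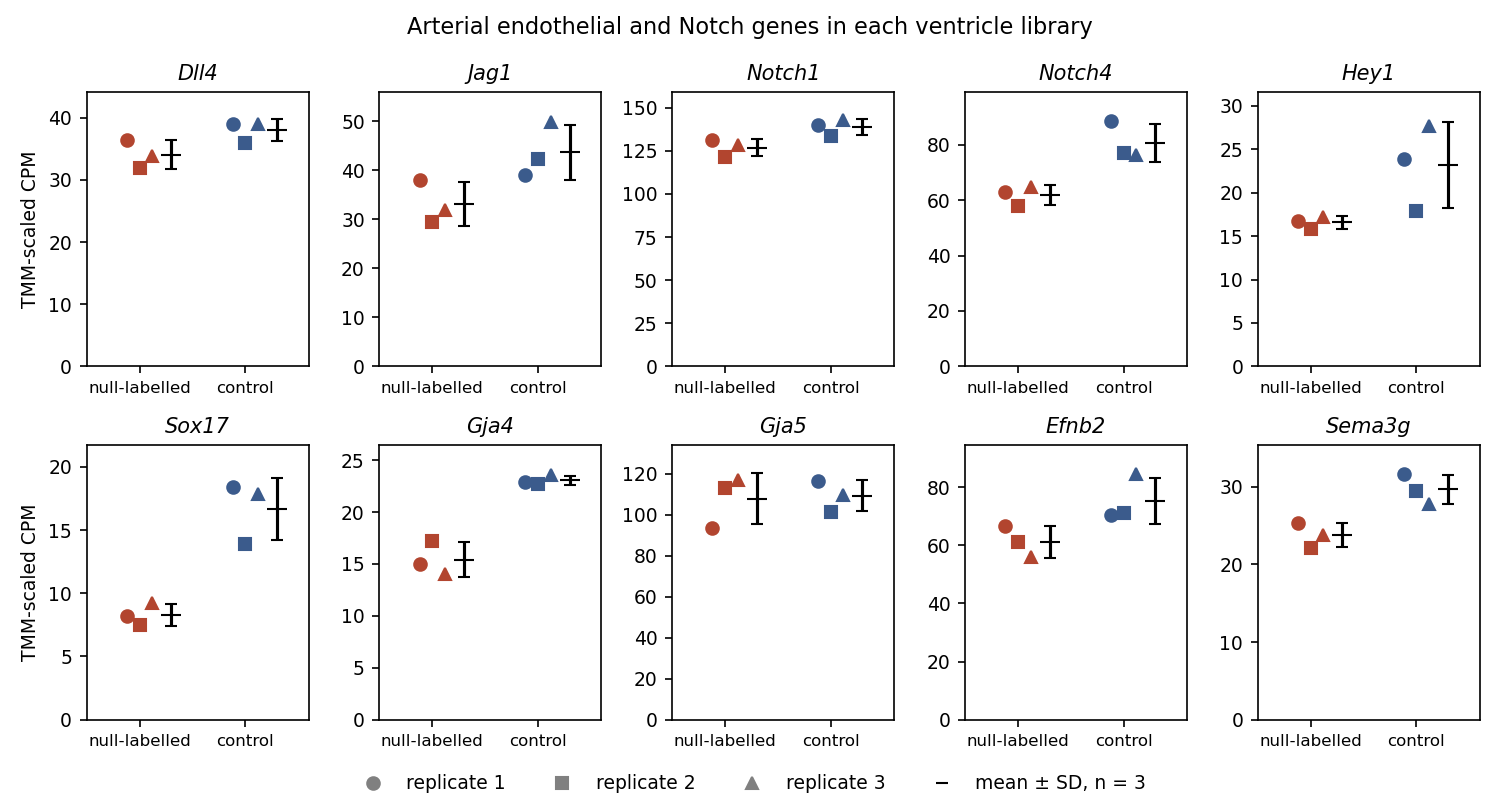
TMM-scaled CPM of the 10 genes (y axis) in each null-labelled and control library (x axis); points are libraries, and bars give the mean ± SD (n = 3). Sox17 lies at 7.46 to 9.22 CPM in null-labelled libraries and 13.9 to 18.4 CPM in controls, while the Gja5 values of the groups overlap.

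Sox17 encodes a SOXF transcription factor that acts in arterial specification. It lies on chromosome 1, 4490931 to 4497354 (GRCm38, minus strand) and overlaps Gm37587, which the files do not list. Its level was 8.23, 7.46 and 9.22 CPM in null-labelled libraries, against 18.4, 13.9 and 17.8 CPM in controls, from 271 to 381 counts in null-labelled libraries and 500 to 809 counts in controls. Every null-labelled library lay below every control, and control 2 was the lowest control. Sox17 was 2.01-fold lower (log2 fold change -1.01 ± 0.12 (SE), 95% interval -1.28 to -0.73, edgeR adjusted p = 0.00369), the largest change among the 10 genes, and it ranked 61 by p among all genes tested. It was called in 12 of 13 alternative analyses, the exception being that without null 1 and null 3 (log2 fold change -1.16, adjusted p = 0.0938).

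The other SOXF genes, Sox7 and Sox18, moved in the same direction. Sox7 measured 49.4, 45.9 and 46.1 CPM in null-labelled libraries, against 65.6, 57.1 and 64.8 CPM in controls, a log2 fold change of -0.41 ± 0.06 (edgeR adjusted p = 0.00732). Sox18 measured 26.3, 27.0 and 26.3 CPM in null-labelled libraries, against 39.3, 34.1 and 38.7 CPM in controls, a log2 fold change of -0.50 ± 0.06 (edgeR adjusted p = 0.0029). Both kept their calls when any single library was left out, and both lost them without null 1 and null 3 (log2 fold changes of -0.45 and -0.47, edgeR adjusted p = 0.164 for each). Sox17 was the least abundant of the 3 per length: its ratio to Sox18 in counts per kilobase of merged exons was 0.106 ± 0.0126 in null-labelled libraries and 0.151 ± 0.0113 in controls (SD, n = 3 each). These ratios did not overlap (exact two-sided permutation p = 0.1, the smallest that 3 libraries against 3 can give; Benjamini-Hochberg adjusted p = 0.125 over 5 gene pairs).

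The 2 connexin genes differed in their change. Gja4, which encodes connexin 37, lies on chromosome 4, 127311421 to 127314039 (minus strand), and Gja5, which encodes connexin 40, on chromosome 3, 96904693 to 97077416 (plus strand). Gja4 measured 15.02, 17.2 and 14.0 CPM in null-labelled libraries, against 22.9, 22.7 and 23.5 CPM in controls. The controls lay within 1 CPM of each other and above all null-labelled libraries. Gja4 was 1.495-fold lower (log2 fold change -0.58 ± 0.08, 95% interval -0.76 to -0.40, edgeR adjusted p = 0.0048) and was called in 12 of 13 alternatives, again except without null 1 and null 3 (log2 fold change -0.42, adjusted p = 0.161).

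Gja5 measured 93.6, 113 and 117 CPM in null-labelled libraries, against 117, 101 and 110 CPM in controls. The groups overlapped, with null 1 the lowest library. Its log2 fold change was -0.02 ± 0.09 (edgeR adjusted p = 0.939), with a 95% interval of -0.24 to 0.20 that leaves a level in null-labelled libraries of 0.847 to 1.15 times that of controls; the sign turned in 3 of 13 alternatives. The Gja4 to Gja5 ratio in length-scaled counts was 0.548, 0.520 and 0.409 in null-labelled libraries, against 0.671, 0.762 and 0.732 in controls, with no overlap (exact two-sided permutation p = 0.1, adjusted p = 0.125 over 5 pairs). On the opposite strand, 165 exonic bases of Gja5 overlap Gpr89 (841 to 1014 counts), and the strand setting of the counting is not given in the sources used here.

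Because trabecular and conduction cardiomyocytes also express Gja5, 13 other genes of those cells were read beside it. With all libraries edgeR called 2 higher and 0 lower, and 11 did not pass. At an unadjusted p under 0.05, 6 were higher and 1 lower, beside 1415 higher and 1618 lower of all 14815 genes tested. The median log2 fold change was 0.24, with 10 of 13 above 0. DESeq2 called 4 higher and 1 lower, and limma-voom 3 higher and 0 lower. Etv1, a transcription factor of fast-conducting myocardium, had a log2 fold change of 0.35 ± 0.08 (edgeR adjusted p = 0.0394), and Tbx5, a cardiac T-box factor, of 0.35 ± 0.07 (edgeR adjusted p = 0.0279). Etv1 lost its call in 5 and Tbx5 in 4 of the 6 fits that leave out 1 library. Nppa, the atrial natriuretic peptide gene, measured 171, 284 and 375 CPM in null-labelled libraries, against 653, 730 and 729 CPM in controls, and did not pass with all libraries (log2 fold change -1.35 ± 0.32, edgeR adjusted p = 0.107). It was called lower by DESeq2 (adjusted p = 0.000703), by edgeR without null 1 (adjusted p = 0.0176) and by edgeR without null 1 and null 3 (adjusted p = 0.0068). Null 1 was the lowest library for Nppa, as for Gja5. Among controls the order differed: control 1 was the lowest of them for Nppa and the highest for Gja5. The summed level of the 13 genes, Nppa included, was 915 to 1154 CPM in null-labelled libraries and 1359 to 1421 CPM in controls, a direction opposite to that of the list's median. The part of these cells in the Gja5 level was not tested.

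The sequences before the RefSeq starts of both connexin genes and of Notch4 and Sema3g are shown. They set called genes beside the connexin that did not pass, without Sox17, which had no window. The 250 bases before the RefSeq start of each (GRCm38.p6) are given 5′ to 3′ on the gene's strand. Capitals mark AGGAAG, the form of ETS site searched for, or its reverse complement CTTCCT. They span chr4:127314040-127314289 (minus strand), chr3:97032152-97032401 (plus strand), chr17:34564045-34564294 (plus strand) and chr14:31217623-31217872 (plus strand). The Gja5 stretch lies inside the gene span given above, 96904693 to 97077416, so it precedes the RefSeq start but is not upstream of that span. The Notch4 and Sema3g stretches end inside their gene spans, which start at 34564268 and 31217860.
Gja4: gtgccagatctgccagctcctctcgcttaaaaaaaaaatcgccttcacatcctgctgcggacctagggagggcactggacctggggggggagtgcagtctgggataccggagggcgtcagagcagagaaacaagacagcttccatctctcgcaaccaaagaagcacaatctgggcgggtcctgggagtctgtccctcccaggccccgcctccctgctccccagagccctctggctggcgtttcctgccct
Gja5: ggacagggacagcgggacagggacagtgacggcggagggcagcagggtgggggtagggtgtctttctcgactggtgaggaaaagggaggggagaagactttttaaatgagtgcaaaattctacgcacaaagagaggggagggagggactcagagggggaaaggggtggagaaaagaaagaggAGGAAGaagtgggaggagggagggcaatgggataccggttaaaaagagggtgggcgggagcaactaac
Notch4: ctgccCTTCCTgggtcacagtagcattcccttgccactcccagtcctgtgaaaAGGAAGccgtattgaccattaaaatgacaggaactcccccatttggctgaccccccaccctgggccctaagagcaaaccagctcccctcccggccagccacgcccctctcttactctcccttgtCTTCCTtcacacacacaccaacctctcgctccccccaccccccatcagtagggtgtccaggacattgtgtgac
Sema3g: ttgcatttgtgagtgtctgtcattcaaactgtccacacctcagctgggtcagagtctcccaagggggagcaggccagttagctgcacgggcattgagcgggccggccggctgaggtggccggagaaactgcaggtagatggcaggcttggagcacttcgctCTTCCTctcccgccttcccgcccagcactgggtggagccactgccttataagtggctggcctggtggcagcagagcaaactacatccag

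Promoter windows of 300 bases, with 250 before and 50 after the start, were found for 8 of the 10 genes in the RefSeq table, all but Sox17 and Hey1. AGGAAG stood on either strand in 3 of these 8 windows, Gja5, Notch4 and Sema3g, beside 35.4% of 32851 windows of all genes. Notch4 held 4 copies, of which 3 lie in the printed bases, and Gja4 held 0 copies of this exact sequence. Other forms of the ETS site were not searched. TGGGAA, the RBPJ core, stood in 1 of 8 windows, that of Sema3g after its start, beside 25.6% of all windows. AACAAT, the SOX core, stood in 0 of 8, beside 10.7% of all windows. No matches overlapped each other.

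Notch4 encodes a Notch receptor of endothelial cells and lies on chromosome 17, 34564268 to 34588503 (plus strand). It measured 63.0, 57.8 and 64.7 CPM in null-labelled libraries, against 88.5, 77.0 and 76.4 CPM in controls. The groups did not overlap, and control 1 stood above the other controls. Notch4 was 1.30-fold lower (log2 fold change -0.38 ± 0.07, 95% interval -0.53 to -0.23, edgeR adjusted p = 0.0149). Its call was lost without null 2 (adjusted p = 0.0577) and without null 1 and null 3 (log2 fold change -0.48, adjusted p = 0.158).

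Notch1 encodes the receptor that serves both arterial endothelium and endocardium, and lies on chromosome 2, 26457903 to 26516663 (minus strand), overlapping the unlisted Gm13568 and 0610009E02Rik. It measured 131, 121 and 128 CPM in null-labelled libraries, against 140, 133 and 143 CPM in controls. The groups stood close but did not overlap. The log2 fold change was -0.13 ± 0.04 with a 95% interval of -0.22 to -0.04, and it did not pass (edgeR adjusted p = 0.102). The Notch1 to Notch4 ratio in length-scaled counts was 1.18, 1.19 and 1.12 in null-labelled libraries, against 0.897, 0.981 and 1.06 in controls, with no overlap (exact two-sided permutation p = 0.1, adjusted p = 0.125 over 5 pairs).

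The 2 ligand genes did not pass. Dll4, whose product is the main Notch ligand of arterial and sprouting endothelium, lies on chromosome 2, 119325784 to 119335962 (plus strand). It measured 36.4, 31.9 and 33.9 CPM in null-labelled libraries, against 39.0, 35.9 and 39.0 CPM in controls, with null 1 above control 2. Its log2 fold change was -0.16 ± 0.06 (95% interval -0.29 to -0.02, edgeR adjusted p = 0.169), and it was called in 0 of 13 alternatives, DESeq2 and limma-voom among them; its unadjusted edgeR p was 0.02524. The antisense gene Gm14207 overlaps 214 of its exonic bases and held 61 to 88 counts, so without the strand setting reads of that stretch cannot be told apart.

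Jag1 encodes a ligand of endothelium and smooth muscle and lies on chromosome 2, 137081456 to 137116644 (minus strand). It measured 38.0, 29.4 and 32.0 CPM in null-labelled libraries, against 39.0, 42.3 and 49.9 CPM in controls. Null 1 and control 1 stood about 1 CPM apart, and control 3 was the highest. The log2 fold change was -0.40 ± 0.12 (95% interval -0.69 to -0.10, edgeR adjusted p = 0.132), while DESeq2 called it lower (adjusted p = 0.00763). Eln, the elastin gene of arterial wall, varied widely within both groups, at 1079, 327 and 313 CPM in null-labelled libraries, against 264, 1162 and 2099 CPM in controls, so that null 1 and control 3 were the highest of their groups for Eln and Jag1 alike. Fbln5, another elastic fibre gene, followed the same order within the controls as Eln, at 16.9, 75.1 and 131 CPM in controls 1, 2 and 3. Between null 2 and null 3 the order of Eln (327 and 313 CPM) was the reverse of that of Jag1 (29.4 and 32.0 CPM). Eln and Fbln5 were named after their values were seen. Of 12 mural and smooth muscle genes, edgeR called 2 lower, DESeq2 also 2 and limma-voom 1, and the 3 tools called 0 higher. At an unadjusted edgeR p under 0.05, 1 was higher, beside 1415 of all 14815 genes tested. Smtn lost its call in all 6 fits that leave out 1 library and Cspg4 in 3. Their summed level was 3106 to 3217 CPM in null-labelled libraries and 3209 to 3531 CPM in controls. The 2 were Smtn (log2 fold change -0.15 ± 0.04, edgeR adjusted p = 0.0455), a smooth muscle actin-binding protein, and Cspg4 (-0.21 ± 0.04, edgeR adjusted p = 0.0178), a pericyte proteoglycan. Their part in the Jag1 level was not tested.

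Hey1, a direct Notch target and transcriptional repressor, lies on chromosome 3, 8663359 to 8667256 (minus strand). It measured 16.7, 15.8 and 17.2 CPM in null-labelled libraries, against 23.9, 17.9 and 27.7 CPM in controls. The null-labelled libraries lay close together and control 2 lay just above them. The log2 fold change of -0.48 ± 0.15 did not pass (95% interval -0.84 to -0.13, edgeR adjusted p = 0.127), although DESeq2 called it lower (adjusted p = 0.0102) and so did edgeR without control 2 (log2 fold change -0.64, adjusted p = 0.0096).

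Other Notch targets moved both ways. Hey2, a related repressor that compact ventricular myocardium also expresses, was higher, at 192, 200 and 202 CPM in null-labelled libraries, against 171, 168 and 171 CPM in controls (log2 fold change 0.22 ± 0.03, edgeR adjusted p = 0.00991). The groups did not overlap. Nrarp, a Notch-induced feedback inhibitor, was lower, at 36.3, 37.6 and 37.8 CPM in null-labelled libraries, against 45.2, 42.0 and 49.2 CPM in controls (log2 fold change -0.29 ± 0.06, edgeR adjusted p = 0.0254). Hes1 measured 14.98 ± 0.968 CPM in null-labelled libraries and 17.9 ± 0.86 CPM in controls (SD, n = 3 each) and did not pass (edgeR adjusted p = 0.0766), and Heyl did not either (log2 fold change -0.11, edgeR adjusted p = 0.746). Hes5, another Notch target, had 0 counts in each null-labelled library, against 3, 4 and 7 counts in controls, and was under the filter on low counts; without the filter edgeR called it lower (adjusted p = 0.0462).

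The Hey1 to Hey2 ratio in length-scaled counts was 0.123, 0.111 and 0.119 in null-labelled libraries, against 0.196, 0.150 and 0.228 in controls, with no overlap (exact two-sided permutation p = 0.1, adjusted p = 0.125 over 5 pairs). The remaining pair, Dll4 to Jag1, overlapped (exact permutation p = 0.2). The ratios of the 5 pairs use the same counts as the single-gene results and are not separate evidence. Of 11 tested genes of the nuclear complex and target list, 1 was higher (Hey2), 1 lower (Nrarp) and 9 did not pass, with a list median of 0.05. Hey2 lost its call without null 2 or null 3, and Nrarp in 4 of 6 fits that leave out 1 library.

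Efnb2 encodes ephrin-B2, the arterial ligand of the venous receptor EPHB4, and lies on chromosome 8, 8617434 to 8661242 (minus strand). It measured 66.5, 61.0 and 55.8 CPM in null-labelled libraries, against 70.4, 71.0 and 84.4 CPM in controls, without overlap and with control 3 the highest, as it was for Eln, Jag1 and Hey1. Its log2 fold change was -0.30 ± 0.09 (95% interval -0.51 to -0.09, edgeR adjusted p = 0.104), and DESeq2 called it lower (adjusted p = 0.0129). Ephb4 itself had a log2 fold change of -0.10 (edgeR adjusted p = 0.236).

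Sema3g encodes a secreted semaphorin of arterial endothelium and lies on chromosome 14, 31217860 to 31230352 (plus strand). It measured 25.3, 22.2 and 23.8 CPM in null-labelled libraries, against 31.7, 29.5 and 27.8 CPM in controls, without overlap. Sema3g was 1.25-fold lower (log2 fold change -0.32 ± 0.07, 95% interval -0.47 to -0.17, edgeR adjusted p = 0.0283). The call was lost without null 2, null 3, control 1 or control 2 (adjusted p from 0.0717 to 0.104) and without null 1 and null 3 (adjusted p = 0.192).

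**Figure D2:**
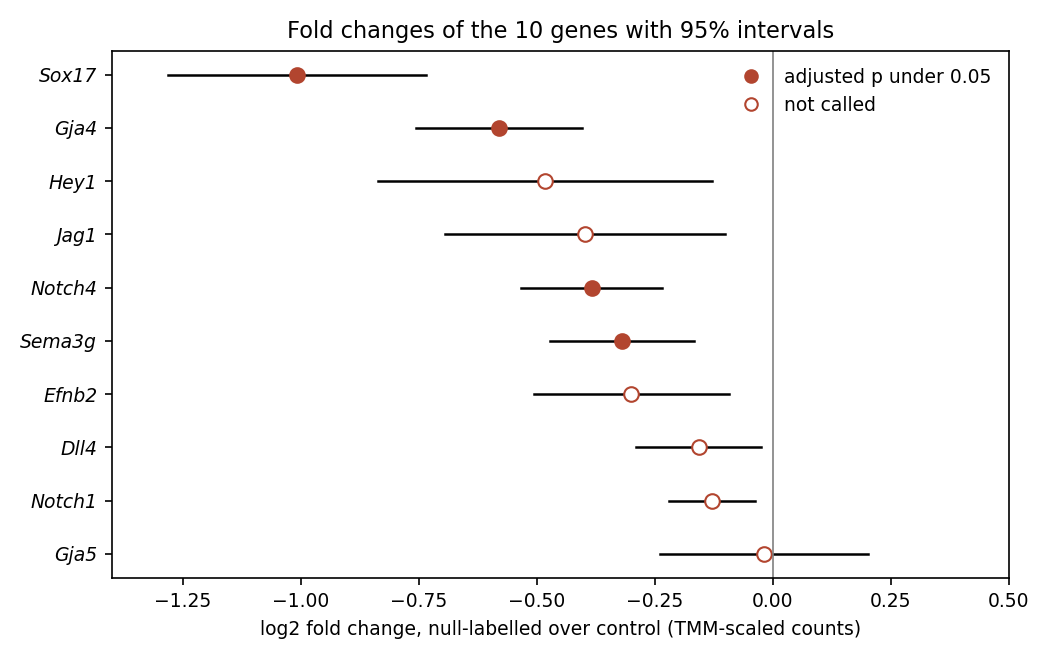
Log2 fold change of each of the 10 genes, null-labelled over control (x axis), with its 95% interval from the edgeR fit of 3 against 3 libraries; filled points passed an adjusted p of 0.05. The intervals of 9 genes lie below 0, and that of Gja5 spans it. Over all 14815 genes tested, 1618 were lower at an unadjusted edgeR p under 0.05.

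Scaled to gene length, as counts per kilobase of merged exons, brought to the same total in each library, Gja5 was the most abundant of the 10 genes in both groups, at 77.8 ± 9.28 in null-labelled libraries and 77.6 ± 5.34 in controls, and Sox17 the least, at 7.21 ± 0.742 in null-labelled libraries and 14.3 ± 2.13 in controls (SD, n = 3 each). In null-labelled libraries Gja4, Efnb2, Notch1 and Dll4 followed Gja5 at mean levels of 38.0 to 36.6, each overlapping its neighbour in that order. Notch4 came next at 31.8, below all of them in every library. Jag1, Sema3g and Hey1 stood at 23.6, 21.7 and 21.03 and overlapped their neighbours. In controls Gja4 stood apart in second place at 55.9 ± 1.48, and Efnb2, Notch4, Dll4 and Notch1 followed at 44.9 to 39.8, each overlapping its neighbour. Jag1, Hey1 and Sema3g came next at 30.7, 29.0 and 26.7, also overlapping. Notch4 thus ranked 6 in null-labelled libraries and 4 in controls.

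The rest of the Notch pathway was read from lists of genes. Of 6 tested ligand and receptor genes outside the 10, 1 was higher, 1 lower and 4 did not pass, with a median log2 fold change of -0.07. Jag2, a further Notch ligand, measured 34.4, 35.1 and 35.8 CPM in null-labelled libraries, against 42.0, 39.3 and 44.3 CPM in controls (log2 fold change -0.25 ± 0.05, edgeR adjusted p = 0.0255). Dlk1, a non-canonical ligand that can dampen Notch signalling, measured 167, 158 and 161 CPM in null-labelled libraries, against 132, 110 and 107 CPM in controls (log2 fold change 0.48 ± 0.08, edgeR adjusted p = 0.0188). Jag2 and Dlk1 each lost the call in 4 of 6 fits that leave out 1 library. Notch2 and Notch3 had log2 fold changes of 0.01 and -0.16 and did not pass (edgeR adjusted p of 0.896 and 0.136).

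Of 22 genes that process or modulate the pathway, 4 were lower, 1 higher and 17 did not pass, with a median of 0.01. Lfng and Mfng, glycosyltransferases that tune which ligand a receptor answers, had log2 fold changes of -0.56 ± 0.10 and -0.45 ± 0.07 (edgeR adjusted p of 0.0162 and 0.0098). Mfng measured 12.8 ± 0.678 CPM in null-labelled libraries and 17.5 ± 0.827 CPM in controls (SD, n = 3 each) and kept its call without any single library, as did Fbxw7, a ubiquitin ligase subunit that marks the active receptor for degradation (log2 fold change 0.31 ± 0.05, edgeR adjusted p = 0.0131). Without null 1 and null 3 neither was called (edgeR adjusted p of 0.292 for Mfng and 0.26 for Fbxw7). Numb, an inhibitor of the pathway, and Dtx3, of the Deltex family, had log2 fold changes of -0.17 and -0.26 (edgeR adjusted p of 0.039 and 0.0137); Numb lost its call in all 6 fits that leave out 1 library, Lfng in 3 and Dtx3 in 1. Genes of the gamma-secretase complex, which cuts the receptor, did not pass, and neither did Rbpj (log2 fold change 0.08, edgeR adjusted p = 0.568).

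**Figure D3:**
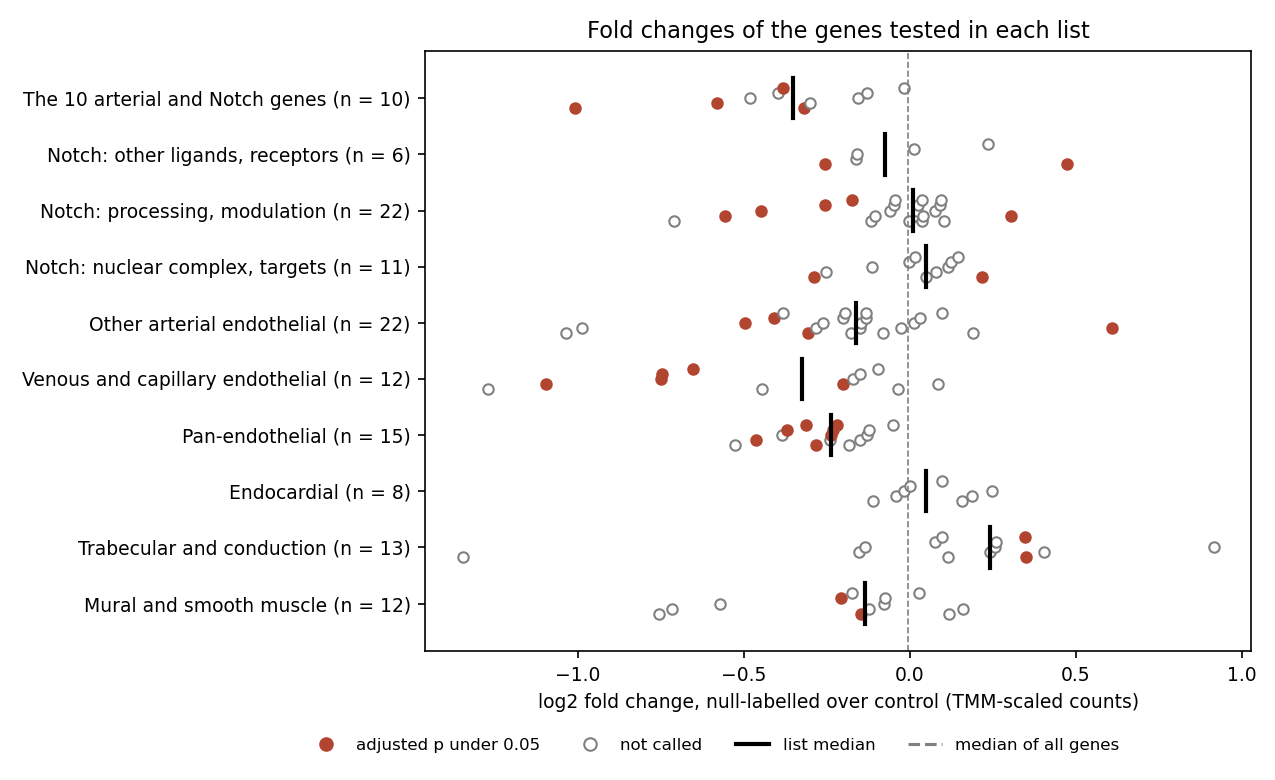
Log2 fold change, null-labelled over control (x axis), of every tested gene in the 10 arterial and Notch genes and in 9 lists (rows); filled points passed an adjusted p of 0.05, thick lines are list medians and the dashed line is the median of all genes. The medians are -0.35 for the 10 genes, -0.32 for venous and capillary genes, -0.24 for pan-endothelial genes and 0.01 for Notch processing and modulation.

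Other endothelial lists held calls in part of their genes. Of 22 other arterial genes, 3 were lower (Sox7, Sox18 and Klf2), 1 was higher (Igfbp3) and 18 did not pass, with a median of -0.16. Klf2, a flow-responsive transcription factor, had a log2 fold change of -0.31 ± 0.05 (edgeR adjusted p = 0.0155), and Igfbp3, which binds insulin-like growth factors, of 0.61 ± 0.11 (edgeR adjusted p = 0.0317), lost in 5 of 6 fits that leave out 1 library. Of 12 venous and capillary genes, 5 were lower and 7 did not pass, with a median of -0.32: Aplnr, the apelin receptor gene (log2 fold change -1.09), Fabp4, a lipid chaperone (-0.75), Rgcc, a cell cycle regulator (-0.75), Aqp1, a water channel (-0.65), and Tek, the angiopoietin receptor (-0.20). Of 15 pan-endothelial genes, 7 were lower and 8 did not pass, all 15 lay below 0, and the median was -0.24. The 7 were Ptprb (log2 fold change -0.46), Egfl7 (-0.37), Icam2 (-0.31), Ecscr (-0.28), Esam (-0.24), Tie1 (-0.23) and Pecam1 (-0.22). Fabp4, Aqp1 and Egfl7 kept their calls without any single library. Without null 1 and null 3, Egfl7 lost its call (edgeR adjusted p = 0.084), while Fabp4 (0.0212), Aqp1 (0.0068) and Ptprb (0.0404) were called. Among fits that leave out 1 library, Klf2, Tek and Tie1 lost their calls in 2 of 6, Ptprb in 1, Aplnr, Esam and Icam2 in 4, Rgcc and Pecam1 in 5, and Ecscr in all 6. The junction gene Cdh5 did not pass (-0.12, edgeR adjusted p = 0.298). Of 8 endocardial genes, edgeR, DESeq2 and limma-voom each called 0 when fitted to the 6 libraries. The unadjusted edgeR p of 3 was under 0.05, all higher, beside 1415 of all 14815 genes tested that were higher at that cut. Tmem108 and Npr3 had the smallest p (log2 fold changes of 0.25 and 0.19, edgeR adjusted p of 0.0856 and 0.125). Npr3 was called higher without control 3 (edgeR adjusted p = 0.0442). A difference between the 10 genes and these lists was not tested.

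Since 7 of the 15 pan-endothelial genes were called lower, each of the 10 genes was also set against the summed counts of the 15 pan-endothelial genes in its own library. Sox17 had 0.401, 0.397 and 0.484 counts per 100 endothelial counts in null-labelled libraries, against 0.772, 0.659 and 0.797 in controls. Gja4 had 0.732, 0.919 and 0.736 in null-labelled libraries, against 0.963, 1.08 and 1.05 in controls. Notch4 had 3.07, 3.08 and 3.40 in null-labelled libraries, against 3.72, 3.65 and 3.41 in controls. For these 3 genes every null-labelled library lay below every control, though Notch4 only barely (exact two-sided permutation p = 0.1 for each, the smallest possible; adjusted p = 0.25 over the 10 genes).

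Notch1 lay the other way on this scale, at 6.39, 6.46 and 6.73 in null-labelled libraries, against 5.89, 6.32 and 6.37 in controls (exact permutation p = 0.1, adjusted p = 0.25). Sema3g, at 1.22 ± 0.0369 in null-labelled libraries and 1.32 ± 0.0775 in controls (SD, n = 3 each), overlapped between the groups, as did Dll4, Jag1, Hey1, Gja5 and Efnb2 (exact permutation p from 0.2 to 0.4). The difference in the mean log2 ratio was -0.80 for Sox17, -0.38 for Gja4, -0.26 for Hey1, -0.20 for Jag1, -0.18 for Notch4, -0.11 for Sema3g, -0.09 for Efnb2, 0.05 for Dll4, 0.08 for Notch1 and 0.18 for Gja5. With Cdh5 alone below the line, Notch1 overlapped between the groups (-0.01, exact permutation p = 0.9) and Sema3g did not (-0.20, exact permutation p = 0.1), and with Pecam1 alone Notch4 overlapped (-0.16, exact permutation p = 0.2). 

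**Figure D4:**
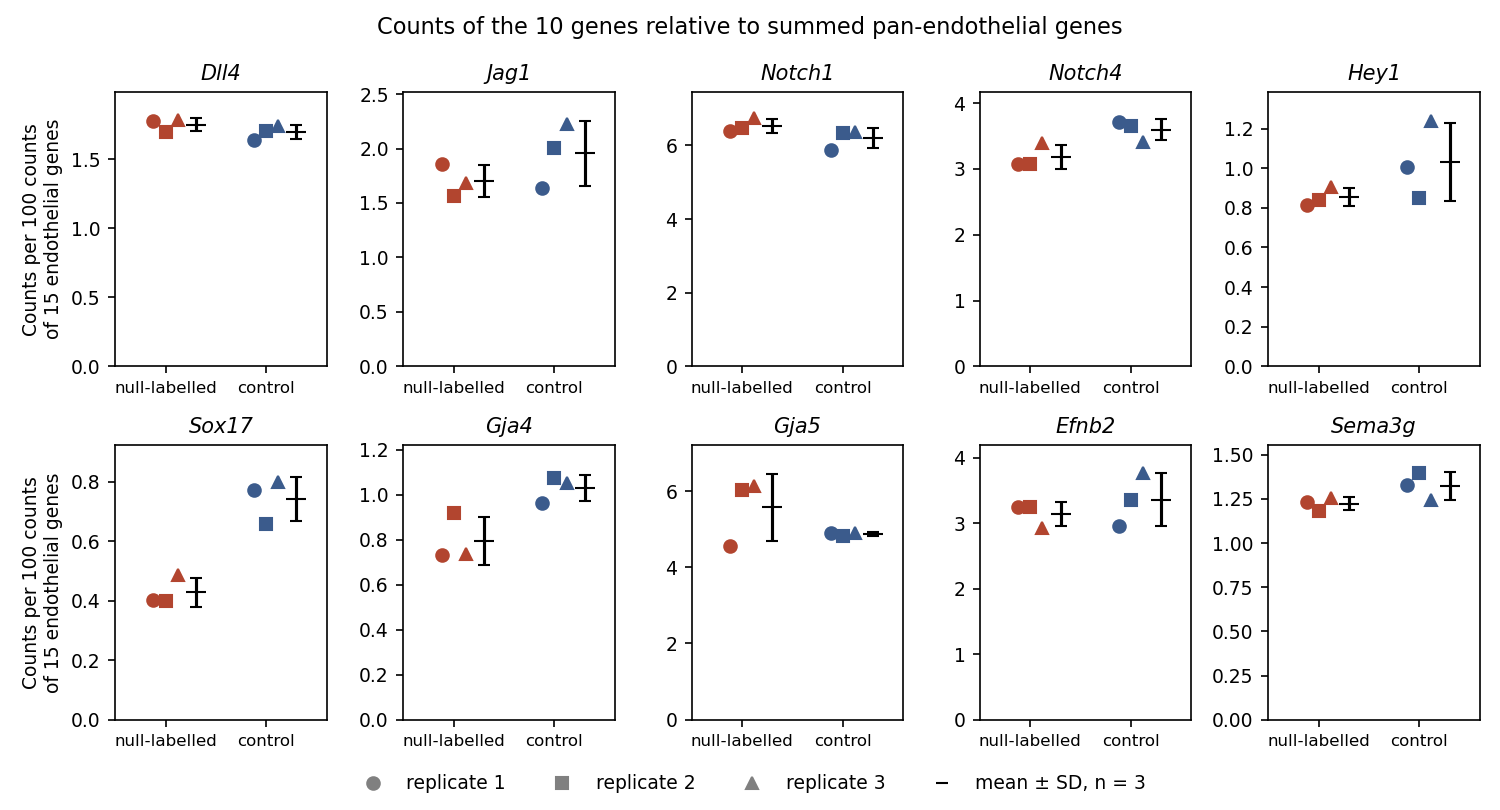
Counts of each of the 10 genes per 100 summed counts of 15 pan-endothelial genes (y axis) in each null-labelled and control library (x axis); points are libraries, and bars give the mean ± SD (n = 3). Sox17 averages 0.428 in null-labelled libraries and 0.743 in controls, while Dll4 averages 1.75 in null-labelled libraries and 1.70 in controls.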

How the data were processed

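Gene counts were analysed for 6 ventricle libraries, 3 null-labelled and 3 control. The authors deposited whole-number counts per gene without normalisation. The tools named, per the submitters' processing notes, are STAR, DESeq2, cutadapt 1.13 and HTSeq 0.6.1p1, on build mm10; the sources used here give neither their roles nor the annotation release or strand setting. Symbols, positions and merged exon lengths came from GENCODE M21 (GRCm38), which matched 24991 of 25006 identifiers. Replicates of a group differed by more than sampling noise; the labels do not say that they came from separate embryos, so p-values measure the spread between these libraries, which may be technical.

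In R 4.3.3, edgeR 4.0.16 was run with filterByExpr, TMM scaling and the robust quasi-likelihood F test, with group as the only term, and p-values were adjusted by Benjamini-Hochberg over all genes tested. Standard errors and 95% intervals derive from the F statistic. The members and lists were chosen with earlier results of these data known, and the 5 gene pairs were added to the planned tests. Named genes were the 10 members, Prox1, Esr1, Alb, Pecam1, Cdh5, Sox7, Sox18, the Hey and Hes genes of the target list, every called gene of a list, and the 2 of smallest p in a list without calls; Eln, Fbln5, Nppa, Ephb4, Notch2, Notch3 and Rbpj were chosen after their values were seen. Alternatives were 2 other scalings, no filter, DESeq2 1.42.0, limma-voom (limma 3.58.1), a replicate block, each library left out, and null 1 and null 3 left out together. The fit was tested on simulated data with 50 genes changed by each known fold. It recovered 12% of genes changed 1.2-fold, 78% at 1.5-fold, 92% at 2-fold and 98% at 3-fold. These were 6, 39, 46 and 49 true calls, beside 19 false calls, so some calls at this threshold can be false. With 12% recovered, a change near 1.2-fold that did not pass is not shown to be absent. At the depths here 3 counts equal 0.0682 to 0.0849 CPM.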

Additional observations from a re-analysis of the deposited data

How the results depend on the processing

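The 4 lower calls among the 10 genes were the same genes under both other scalings, without the filter, with limma-voom and with the replicate block. DESeq2 called 7 lower, beside 554 of all 14815 genes tested. Leaving out 1 library gave 2 to 4; the lowest count was without null 2, when Sox17 and Gja4 were left. Without null 1 and null 3 no such call remained in edgeR. Null 2 then stands alone and is assumed to vary like the controls. No gene among the 10 was called higher under any of the 13 alternatives. Over all genes, 441 were called lower and 360 higher; leaving out 1 library gave 126 to 494 lower and 127 to 448 higher, DESeq2 called 542 higher, and without null 1 and null 3 the counts were 31 lower and 21 higher. Same-numbered libraries did not deviate together (correlations of -0.06, -0.05 and -0.12 for numbers 1, 2 and 3). With 3 libraries a group this shows no pairing by number but cannot exclude it. With the replicate block 4 of the 10 genes were called lower, and 570 genes in all against 801 without it. With the block the endocardial gene Tmem108 was called higher (edgeR adjusted p = 0.0447). Without null 1 and null 3, 26 of the 29 list calls were lost. Scalings moved the median of all genes by less than 0.01 on the log2 scale. The Gja5 log2 fold change ran from -0.08 to 0.07 over the alternatives and was called in 0 of 13. With 3 libraries a group, exact tests on ratios cannot give a p under 0.1.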
